A study of Homo sapiens with 6 samples.

Results

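Transcripts of the subunits of chromatin remodelling complexes were compared between WM164 melanoma cells with an empty vector and with an HDAC8 expression vector. The genes were taken by name from the protein-coding rows of the count table. They are those whose symbol begins with SMARC, INO80 or CHD and a digit, and ARID1A, ARID1B, ARID2, PBRM1, ACTL6A, ACTL6B, DPF1, DPF2, DPF3, PHF10, BRD7, SS18 and BPTF. The rule found 42 of the 60504 genes in the table. By known role, 21 belong to SWI/SNF, 10 to the CHD family, 6 to INO80 and 3 to ISWI, and 2 (SMARCAD1 and SMARCAL1) are other ATPases of the SNF2 type. The INO80 entries include INO80B-WBP1, a readthrough transcript that joins INO80B to the gene behind it.

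Remodelling complexes use the energy of ATP to slide, eject or exchange nucleosomes, and so set which DNA the transcription machinery can reach. Each complex is built on an ATPase of the SNF2 type. SWI/SNF holds SMARCA4 (BRG1) or SMARCA2 (BRM), never both in one complex, and comes as BAF, with ARID1A or ARID1B, as PBAF, with ARID2, PBRM1, BRD7 and PHF10, or as a smaller form without either ARID type. CHD3, CHD4 and CHD5 drive NuRD, a complex that couples remodelling to histone deacetylation by HDAC1 and HDAC2. SMARCA1 and SMARCA5 drive ISWI complexes, which space nucleosomes. In pigment cells SWI/SNF with SMARCA4 is known as a partner of MITF, the lineage transcription factor, and CHD7 and CHD8 are known as regulators of neural crest and developmental genes.

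The cells are WM164, a human melanoma line that carries BRAF V600E in both groups. EV cells received an empty expression vector and HDAC8 cells a vector for HDAC8, a class I histone deacetylase, and both were kept under hygromycin selection. The sources used here do not say whether each population grew from 1 clone or whether the replicates came from separate cultures, so the p-values measure the spread between these libraries, which may be technical. Each group had 3 libraries of bulk RNA, and in bulk RNA fewer cells of a type and less RNA per cell cannot be told apart.

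HDAC8 itself (ENSG00000147099, chrX:72329516-72573101, minus strand) was read at 384, 404 and 479 normalized counts in EV replicates 1 to 3 and at 485, 446 and 474 in HDAC8 replicates 1 to 3. A normalized count is the number of reads assigned to a gene, divided by a size factor that sets the libraries to a common depth. The groups overlapped, and the log2 fold change of HDAC8 over EV was 0.15 (SE 0.28, adjusted p = 0.856), with a 95% interval from -0.41 to 0.70, so a rise above 1.63-fold lay outside it. The counts thus did not separate the groups at the gene named on the vector, and higher or lower means here what the libraries with the HDAC8 label show relative to those with the EV label. The study examined HDAC8 protein by immunoblot in melanoma cells given the empty or the HDAC8 vector, which these counts do not measure.

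Total counts ran from 34741083 to 42041462 per library, and the 42 genes took 0.467% to 0.523% of them. Mitochondrially encoded transcripts took 9.66% to 12.8% of the EV libraries and 4.46% to 7.94% of the HDAC8 libraries, and a fit without these genes made the same 4 calls among the remodelling subunits. HDAC8 replicate 1 differed more from the other two HDAC8 libraries than any EV pair differed. The 8 melanocyte lineage markers had a summed normalized count of 244961 to 328760 in EV and 137043 to 182218 in HDAC8. TYRP1 was low, at 21.7 to 62.9 in EV and at 0, 0 and 17.4 in HDAC8 replicates 1 to 3. TYR, DCT, MLANA, PMEL and S100B were lower by the test used below, while MITF, SOX10 and TYRP1 were not called. Summed counts were 147 to 280 (EV) and 166 to 176 (HDAC8) for 4 keratinocyte markers, 2413 to 2864 and 1396 to 2393 for 4 fibroblast markers, and 97.5 to 203 and 114 to 218 for 3 endothelial markers, with KRT1, DCN and CDH5 at 0 in every library. Among the fibroblast markers PDGFRA was called higher, at 113, 170.0 and 138 in EV and 327, 236 and 376 in HDAC8. LUM and PDGFRB had values in the other direction and were not called. The mean of LUM was 2462 in EV and 1629 in HDAC8 (log2 fold change -0.60). That of PDGFRB was 61.5 in EV and 8.84 in HDAC8 (log2 fold change -2.79). The 3 leukocyte markers summed to 2286 to 3302 and 4273 to 6165, nearly all from CD68, which was called higher (log2 fold change 0.92). CD3E, a T cell marker, was at 0 in every EV library and at 78.7, 91.1 and 50.1 in HDAC8, and was called higher as well. PTPRC, which defines leukocytes, was at 0 in every library except HDAC8 replicate 1 (2.57). The part of the pigment markers and of the other lists in the results below was not tested.

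Of the 42 genes, 41 had enough reads to be tested and 40 received an adjusted p. For a call, DESeq2 had to give an adjusted p (Benjamini-Hochberg) below 0.05 together with a log2 fold change of 0.58 or more in either direction. CHD3, BRD7 and ACTL6A rose and SMARCE1 fell, which is 4 of 40 (10%), and 11% of all 21021 genes with an adjusted p were called in either direction. The share called higher over all genes was 5.57% and the share called lower 5.44%. Of 14272 protein-coding genes with an adjusted p, 1035 were called higher and 945 lower. By the adjusted p alone, with no fold minimum, 7 of the 40 passed (4 higher, 3 lower), against 13% of all genes, and CHD8, SMARCD1 and CHD2 were the additions. Among genes whose mean normalized count reached 50 the figures were 4 of 38 remodelling genes and 14% of all genes, so the share of subunits called was close to the background. The 4 calls lay in SWI/SNF (2 higher, 1 lower of 20 tested) and the CHD family (1 higher of 10). None of the 3 ISWI genes, the 6 INO80 genes or the 2 other ATPases was called, and at an unadjusted p under 0.05 with the same fold no further gene was added. A stricter DESeq2 test, for a change larger than 0.58, called none of the subunits, and the lowest adjusted p was that of CHD3 (0.363).

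Most subunits moved little. Over the 38 genes with a mean of at least 50 the median log2 fold change was -0.08 and the median size of the change was 0.28. Over all 14451 genes with a mean of at least 50 these were -0.00 and 0.35. None of the 38 reached a log2 fold change of 1 in size, which 1684 of the 14451 did. The size of an estimated change also depends on the count level, for which the 38 and the 14451 were not matched. In each library the median log2 difference of these genes from the EV mean was 0.00, -0.04 and 0.03 in EV replicates 1 to 3 and -0.14, -0.03 and -0.06 in HDAC8 replicates 1 to 3, with a pooled SD of 0.05, so only HDAC8 replicate 1 stood below all the EV libraries by more than that spread. A gene counted as apart when no EV library overlapped any HDAC8 library. By this rule 8 subunits were apart and higher and 11 apart and lower, 19 of 41 (46.3%). All 19 were among the 38. Of all genes tested 24% were apart (11.3% higher, 12.7% lower), and of those with a mean of at least 50, 35%. Of 15630 protein-coding genes tested, 2424 were apart and higher and 2531 apart and lower. Whether groups stand apart also depends on the count level, which was not matched.

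**Figure D1:**
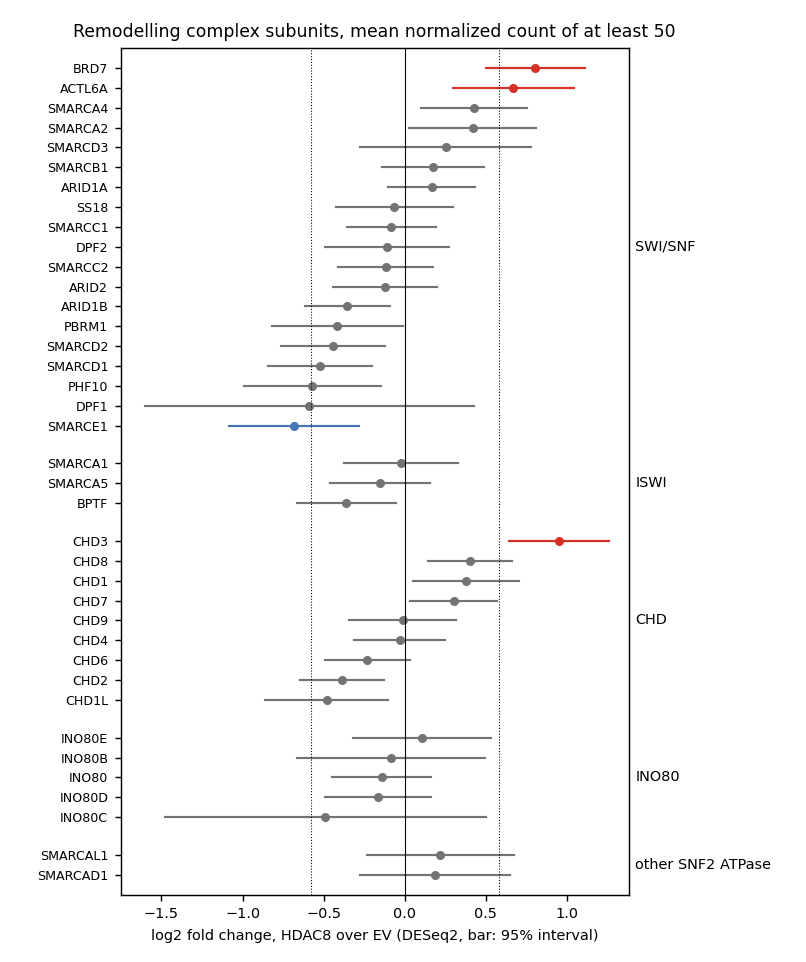
The log2 fold change of HDAC8 over EV (horizontal axis) for the 38 remodelling genes whose mean normalized count reached 50, grouped by complex. Points are DESeq2 estimates from 3 libraries a group, bars are 95% intervals, dotted lines mark the minimum of 0.58, and red and blue mark the 3 genes called higher and the gene called lower. CHD3 lies furthest right at 0.95 and SMARCE1 furthest left at -0.68.

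A p above the threshold does not show that a gene kept its level, so a further DESeq2 test asked whether each change was smaller than 0.58 in size. It gave an adjusted p for 35 of the genes, and 14 (40%) passed, against 24.5% of the 7900 genes with a value. These were CHD4, CHD6 and CHD9, the ISWI ATPases SMARCA1 and SMARCA5, INO80 and INO80D, and in SWI/SNF the scaffolds SMARCC1 and SMARCC2, SMARCB1, ARID1A, ARID2, DPF2 and SS18. The count depended on the libraries, with 6 genes left without EV replicate 1, 6 without EV replicate 2 and 7 without EV replicate 3. It was 9 without HDAC8 replicate 2, 5 without HDAC8 replicate 3 and 20 without HDAC8 replicate 1. Whether a gene passes also depends on its count level, for which the shares of 40% and 24.5% were not matched.

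CHD3, an ATPase of NuRD, showed the largest change among the 38 subunits whose mean count reached 50. It lies at chr17:7884796-7912760 on the plus strand (GRCh38, GENCODE release 44, ENSG00000170004). Its normalized counts were 5328, 5882 and 5709 in EV replicates 1 to 3 and 13157, 9193 and 10369 in HDAC8 replicates 1 to 3. All 3 HDAC8 libraries stood above all 3 EV libraries, and replicate 1 was the highest. The mean rose from 5639.6 ± 283 to 10906 ± 2036 (SD, n = 3 each), a log2 fold change of 0.95 (SE 0.16, adjusted p = 6.72e-08) or 1.93-fold. It was called in each of the 14 alternative fits under the same rule, with values from 0.79 to 1.07. CHD3 overlaps NAA38 on the opposite strand (mean 597, log2 fold change 0.61), and whether reads were counted by strand is not given in the sources used here.

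CHD4, the other abundant NuRD ATPase, did not follow. It had 23627, 27562 and 24225 normalized counts in EV and 28811, 22712 and 22231 in HDAC8, with overlapping groups and a log2 fold change of -0.03 (SE 0.14, adjusted p = 0.951). Its 95% interval ran from -0.31 to 0.25, and it passed the test for a change under 0.58. CHD5, the NuRD ATPase of neural tissue, stayed at 19.7 to 64.4 in all 6 libraries. A ratio taken within a library does not depend on the scaling between libraries. The log2 ratio of CHD3 to CHD4 was -2.15, -2.23 and -2.09 in EV and -1.13, -1.31 and -1.10 in HDAC8, a difference of 0.98. With 3 libraries a group the exact two-sided permutation test cannot go below p = 0.1, and this pair reached that value (0.233 after Benjamini-Hochberg adjustment over 7 pairs). Per kilobase of transcript, CHD3 made up 16.5%, 15.8% and 17.2% of the summed CHD3, CHD4 and CHD5 counts in EV and 28.6%, 26.2% and 29.0% in HDAC8.

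The remaining CHD genes act outside NuRD, as regulators of elongation, development and DNA repair. CHD8 reached an adjusted p of 0.0249 with a log2 fold change of 0.40 (SE 0.13), below the fold minimum. Its counts were 7045, 7277 and 8184 in EV and 9238, 10431 and 10047 in HDAC8, so the groups stood apart. CHD2 stood apart in the other direction, with 8953, 8350.3 and 9197 in EV and 7288, 6399.9 and 6558 in HDAC8 (log2 fold change -0.39, SE 0.13, adjusted p = 0.0289). CHD1, its closest relative, had overlapping groups and a log2 fold change of 0.38 (SE 0.17, adjusted p = 0.123). CHD1L, a remodeller recruited to DNA damage, was at -0.48 (SE 0.19, adjusted p = 0.079), and CHD7 at 0.30 (SE 0.14, adjusted p = 0.139). CHD6 (-0.23) and CHD9 (-0.01) passed the test for a change under 0.58.

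BRD7, a bromodomain subunit of PBAF, showed the next largest change among those 38. It lies at chr16:50313487-50368988 on the minus strand (ENSG00000166164). Its normalized counts were 2264, 2127.5 and 2362 in EV and 3737, 3682 and 4363 in HDAC8. The lowest HDAC8 library was well above the highest EV library. The mean rose from 2251 ± 118 to 3927 ± 379 (SD, n = 3 each), a log2 fold change of 0.80 (SE 0.16, adjusted p = 8.53e-06) or 1.74-fold. The alternative fits under that rule gave 0.72 to 0.85 and called it each time. ADCY7 overlaps BRD7 on the opposite strand (mean 797, log2 fold change 1.27), and the pseudogene BRD7P4 had a mean of 45.3.

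The other PBAF subunits did not move with BRD7. PBRM1, which reads acetylated histones through its bromodomains, had 3448, 2955 and 3683 in EV and 1797, 3077 and 2689 in HDAC8 (log2 fold change -0.42, SE 0.21, adjusted p = 0.189). Its groups overlapped, and HDAC8 replicate 1 was the lowest. PHF10 had 1991, 1559.7 and 2054 in EV and 1009, 1253 and 1514 in HDAC8, with groups apart (-0.57, SE 0.22, adjusted p = 0.0579). It lay just outside the threshold and was called lower without EV replicate 2 (-0.69, adjusted p = 0.0432) and without HDAC8 replicate 3 (-0.72, adjusted p = 0.0357). ARID2 passed the test for a change under 0.58 (-0.12, SE 0.16).

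**Figure D2:**
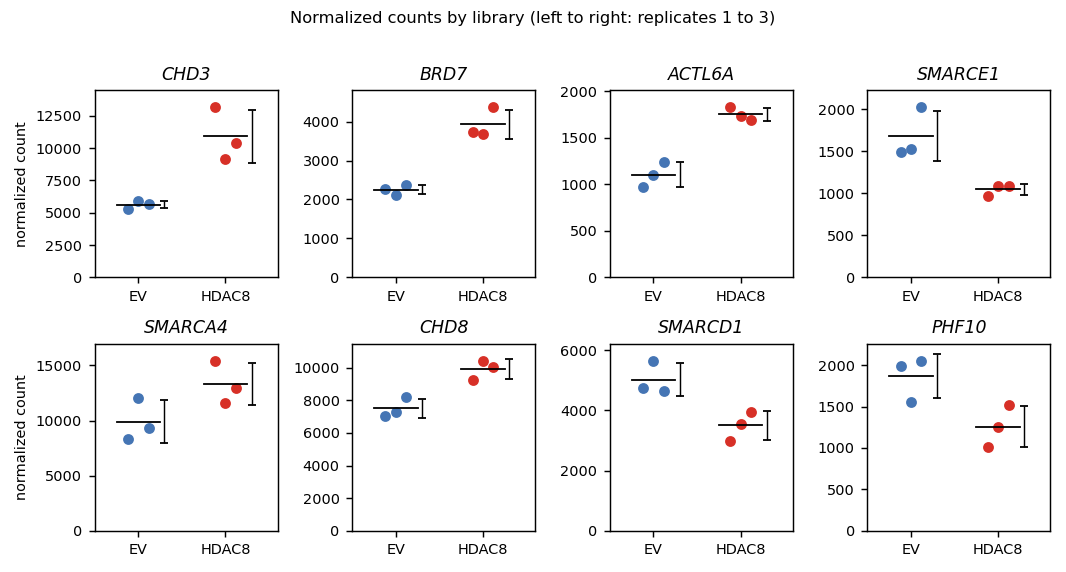
Normalized counts (vertical axis, from 0) of 8 remodelling genes in the 3 EV and 3 HDAC8 libraries. Points are libraries, horizontal lines are group means and error bars are 1 SD. CHD3, BRD7 and ACTL6A are higher and SMARCE1 lower in every HDAC8 library, CHD8, SMARCD1 and PHF10 are also apart, and SMARCA4 overlaps because EV replicate 2 reaches 12087.

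The actin-related subunit comes as ACTL6A, found in dividing cells, or ACTL6B, found in neurons. ACTL6B had no reads in any library, where 3 counts, taken as the limit that a count of 0 allows, correspond to 2.57 to 3.27 normalized counts per library. ACTL6A (chr3:179562886-179588407, plus strand) had 972, 1104 and 1236 in EV and 1828, 1738 and 1695 in HDAC8. Every HDAC8 library lay above every EV library, and the HDAC8 libraries were the closer together. The mean rose from 1104 ± 132 to 1754 ± 67.7 (SD, n = 3 each), a log2 fold change of 0.67 (SE 0.19, adjusted p = 0.00592) or 1.59-fold. Without EV replicate 1, its lowest library, the value was 0.58 with an adjusted p of 0.0866 and the call was lost. ACTL6A is shared with INO80 and with the TIP60 acetyltransferase complex, so its transcript does not belong to SWI/SNF alone.

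SMARCE1 (BAF57), a DNA-binding core subunit of SWI/SNF, was the subunit that fell. It lies at chr17:40624962-40648654 on the minus strand (ENSG00000073584). Its normalized counts were 1498, 1534 and 2024 in EV and 975, 1085 and 1089 in HDAC8. The groups did not overlap, and EV replicate 3 was the highest library. The mean went from 1686 ± 294 to 1049 ± 64.7 (SD, n = 3 each), and the log2 fold change was -0.68 (SE 0.20, adjusted p = 0.0097), or 0.622 of the EV level. Without EV replicate 3 the value was -0.54 with an adjusted p of 0.16, and the call was lost. An antisense transcript with no symbol (mean 63.5) and the pseudogene SMARCE1P1 (mean 22.5) could share reads with it.

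Of the 7 core subunits, SMARCE1 among them, 5 had negative values and only SMARCE1 was called. In 3 the groups were apart and lower, namely SMARCE1 and, as given below, SMARCD1 and SMARCD2. SMARCB1, the tumour suppressor lost in rhabdoid tumours, had 2048, 2383 and 2136 in EV and 2458, 2435 and 2519.8 in HDAC8, with groups apart but a log2 fold change of only 0.17 (SE 0.16, adjusted p = 0.6). The scaffolds SMARCC1 (-0.08, SE 0.14) and SMARCC2 (-0.12, SE 0.15) passed the test for a change under 0.58 together with it. SMARCC1 ran from 3725 to 3984 in EV and 3502 to 3761 in HDAC8, and SMARCC2 from 3785 to 4717 and 3813 to 4046.

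The SMARCD subunits, which replace each other within a complex, had values of both signs. SMARCD1 had 4755, 5649 and 4658 in EV and 2973, 3559 and 3963 in HDAC8, with groups apart and a log2 fold change of -0.52 (SE 0.16, adjusted p = 0.0158), short of the fold minimum. Without HDAC8 replicate 3 it reached -0.62 (adjusted p = 0.0193) and was called. SMARCD2 had 2497, 3109 and 2714 in EV and 2066, 2029 and 2022 in HDAC8 (-0.44, SE 0.16, adjusted p = 0.0525), also with groups apart. SMARCD3, the form known from heart and muscle, had 937, 1157 and 724 in EV and 1489.6, 869.5 and 994 in HDAC8. Its groups overlapped, and its log2 fold change of 0.25 (SE 0.27, adjusted p = 0.678) was -0.01 without HDAC8 replicate 1. The log2 ratio of SMARCD3 to SMARCD1 was -2.34, -2.29 and -2.69 in EV and -0.997, -2.03 and -1.995 in HDAC8, a difference of 0.76 with groups apart (exact permutation p = 0.1, adjusted 0.233), which was 0.42 without HDAC8 replicate 1. The SMARCD2 to SMARCD1 ratio overlapped between the groups (difference 0.09, exact permutation p = 0.7).

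SMARCA4 carried most of the SWI/SNF ATPase transcript, with 88.0% to 91.7% of the summed per-kilobase counts of the pair in EV and 88.6% to 92.5% in HDAC8. Its normalized counts were 8335, 12087 and 9291 in EV and 15429, 11623 and 12925 in HDAC8, so EV replicate 2 lay above HDAC8 replicate 2. The log2 fold change was 0.43 (SE 0.17, adjusted p = 0.0709). Without EV replicate 2 it was 0.59 (adjusted p = 0.00553) and called, and without HDAC8 replicate 1 it was 0.31 (adjusted p = 0.132). SMARCA2 had 1173, 1133 and 989 in EV and 1283, 1543 and 1578 in HDAC8, with groups apart and a log2 fold change of 0.42 (SE 0.20, adjusted p = 0.169). The ratio of SMARCA2 to SMARCA4 had a difference of -0.02 between the groups (exact permutation p = 1.0), with an SD between libraries of 0.30 in EV and 0.36 in HDAC8.

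Among the subunits that define canonical BAF, neither ARID1A nor ARID1B was called. ARID1A, often mutated in cancer, had 10830.0, 12968 and 11770.3 in EV and 12358, 12755 and 14783 in HDAC8 (0.17, SE 0.14, adjusted p = 0.54), with overlapping groups. ARID1B had 6110.2, 6736 and 6522 in EV and 4835, 4953 and 5363 in HDAC8, with groups apart (-0.35, SE 0.13, adjusted p = 0.0596). The log2 ratio of ARID1B to ARID1A was -0.83, -0.95 and -0.85 in EV and -1.35, -1.36 and -1.46 in HDAC8. The difference was -0.52, with an SD between libraries of 0.06 in each group, and the exact permutation test gave its smallest p of 0.1 (0.233 adjusted). In per-kilobase shares of the 3 ARID subunits, ARID1B took 24.3%, 23.9% and 23.5% in EV and 19.7%, 18.6% and 18.2% in HDAC8, and ARID1A 51.7%, 55.2% and 50.8% against 60.5%, 57.6% and 60.2%.

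The DPF subunits read modified histone tails. DPF2 was the abundant form, at 1380.2 to 1880.0 in EV and 1382 to 1550 in HDAC8. DPF1, found in neuronal BAF, had 132, 194 and 136 in EV and 109, 71.7 and 127 in HDAC8 (-0.59, SE 0.52, adjusted p = 0.579), where the low counts gave an interval from -1.60 to 0.43. DPF3 was near the limit of detection, at 18.7 to 27.1 in EV and 0, 30.7 and 1.09 in HDAC8. SS18, whose fusion to SSX drives synovial sarcoma, passed the test for a change under 0.58 (-0.06, SE 0.18).

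**Figure D3:**
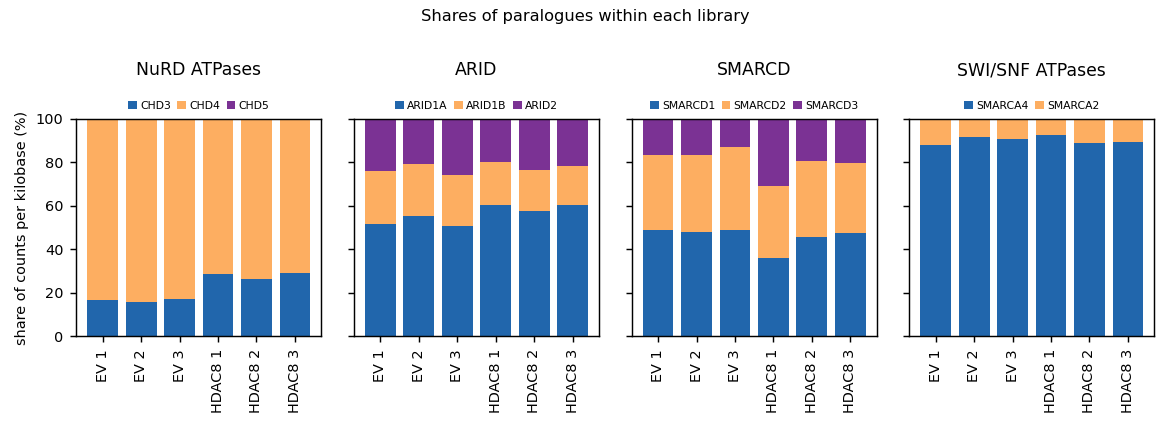
Share of each paralogue (vertical axis, percent of summed normalized counts per kilobase of the canonical transcript) within 4 groups of alternative subunits, for each of the 6 libraries. CHD3 goes from 15.8% to 17.2% in EV to 26.2% to 29.0% in HDAC8, ARID1B from 23.5% to 24.3% to 18.2% to 19.7%, SMARCD3 is largest in HDAC8 replicate 1 at 30.9%, and the SMARCA4 share overlaps between the groups.

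The ISWI genes showed no call. The ATPase SMARCA5 had 6249, 5598 and 7028 in EV and 4769.6, 6229 and 5973 in HDAC8 (-0.15, SE 0.16, adjusted p = 0.661). SMARCA1 had 4042, 3057 and 3876 in EV and 3011, 4161 and 3635 in HDAC8 (-0.02, SE 0.18, adjusted p = 0.974). Both passed the test for a change under 0.58, and their log2 ratio differed by 0.13 (exact permutation p = 0.3). BPTF, the largest subunit of the ISWI complex NURF, had 10638, 9659 and 11602 in EV and 6765, 9492 and 8567 in HDAC8 (-0.36, SE 0.16, adjusted p = 0.113), with groups apart by a small margin.

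INO80 moves and exchanges nucleosomes that carry the variant histone H2A.Z. Its ATPase gene INO80 had 2542, 2530.0 and 2445 in EV and 2369, 2227 and 2213 in HDAC8, apart but with a log2 fold change of only -0.14 (SE 0.15, adjusted p = 0.684). The subunits INO80B, INO80C, INO80D and INO80E lay between -0.49 and 0.10, and all overlapped between the groups. The readthrough INO80B-WBP1 was at 0 in 4 libraries, 23.3 in EV replicate 2 and 108 in HDAC8 replicate 3. It received no adjusted p and, without EV replicate 2, was called higher on the reads of that HDAC8 library alone. SMARCAD1 (0.19, SE 0.24) and SMARCAL1 (0.22, SE 0.23), which act in replication and repair, were not called.

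Across genes, levels can be set in order only per kilobase of transcript. CHD4 stood first in EV, at a mean of 3873 normalized counts per kilobase, followed by SMARCA4 (1776), SMARCD1 (1529), ARID1A (1379), SMARCD2 (1126) and INO80E (1011). In HDAC8 the order was CHD4 (3787), SMARCA4 (2389), ARID1A (1547), CHD3 (1477), CHD8 (1169.9) and CHD7 (1154), so CHD3, at 764 per kilobase in EV, came to stand in the first group. CHD5, INO80B-WBP1, DPF3 and ACTL6B were lowest in both groups, at no more than 17.6 per kilobase.

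Other genes of the same complexes, in 5 lists written from general knowledge, held 69 tested genes. Of these 7 rose and 1 fell, against 5.57% of all genes called higher and 5.44% lower (11% in either direction). All 69 had a mean of at least 50, a level at which 14% of all genes were called. Of protein-coding genes at that level 8.09% were called higher and 7% lower. The count of calls in either direction lay near the background, but nearly all of these calls were higher. This imbalance was not tested. None of 8 further SWI/SNF partners was called. Among 10 NuRD partners 2 rose, MTA2, a subunit that binds the deacetylases, at 0.78 (SE 0.14), and MBD3, a NuRD scaffold, at 0.79 (SE 0.18). MTA2 had 3016, 3423 and 3142 in EV and 5936, 5377 and 5155 in HDAC8, and MBD3 had 3531, 5044 and 3829 in EV and 8523, 6121 and 6867 in HDAC8. Their groups stood apart, and the other 8 NuRD partners were not called.

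Of 11 ISWI partners, BAZ1A (ACF1) rose by 0.77 (SE 0.18) and BAZ2B fell by 0.68 on the log2 scale (SE 0.17). Of 27 genes of INO80, SRCAP and TIP60, RUVBL1, an AAA+ ATPase of all 3 complexes, rose by 0.63 (SE 0.20, adjusted p = 0.017), and lost its call without EV replicate 2 (0.64, adjusted p = 0.06), EV replicate 3 (0.55, adjusted p = 0.146) or HDAC8 replicate 1 (0.52, adjusted p = 0.0514). Of 13 further ATPases of the SNF2 type, TTF2 (0.82, SE 0.14), HLTF (0.80, SE 0.18) and ERCC6L (0.80, SE 0.23) rose, acting in transcription termination, the repair of stalled replication forks and mitosis. ERCC6L lost its call without EV replicate 2 (0.66, adjusted p = 0.0612) and without HDAC8 replicate 3 (0.72, adjusted p = 0.078).

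The genes next to each subunit were examined as well. Neighbours were genes whose nearest end lay within 1 Mb of the subunit's gene, a distance chosen after the data had been seen. Only protein-coding genes with a mean of at least 50 were used, placed by GENCODE release 44. BRD7 had 7 such neighbours, and their median log2 fold change was 1.13. All 7 had positive values and 6 were called higher: HEATR3 (1.13), TENT4B (1.06), ADCY7 (1.27), NKD1 (1.44), CYLD (1.37) and SALL1 (0.63), with CNEP1R1 at 0.37. Of all such protein-coding genes 8.09% were called higher and 7% lower. In the single libraries the median of the 7, relative to the EV mean, was 0.01 to 0.04 in EV and 0.99, 1.03 and 1.14 in HDAC8, so every HDAC8 library showed it. CHD9, on the same chromosome and 2.85 Mb from BRD7 between gene midpoints, was at -0.01. Its own 6 neighbours had a median of -0.01 with none called. The 24 genes at 1 to 5 Mb from BRD7 had a median of 0.48, with 8 called higher and none lower.

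CHD3 lay among 63 such genes, with a median log2 fold change of 0.58, of which 21 were called higher, none lower and 56 had positive values. They include KDM6B (0.62), POLR2A (0.77), AURKB (0.61) and the marker CD68 (0.92). The 60 genes at 1 to 5 Mb from CHD3 had a median of 0.54, with 16 called higher and none lower. ACTL6A had 10 neighbours with a median of 0.34, of which MFN1 (0.77) was called. Their median by library was -0.20 in HDAC8 replicate 1 against 0.59 and 0.55 in replicates 2 and 3, and the 27 genes at 1 to 5 Mb had a median of 0.44, with 8 called higher. SMARCE1 had 20 with a median of 0.07, of which 1 was called higher (KRT15) and none lower, while the 120 genes at 1 to 5 Mb had a median of -0.16, with 2 called higher and 15 lower.

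**Figure D4:**
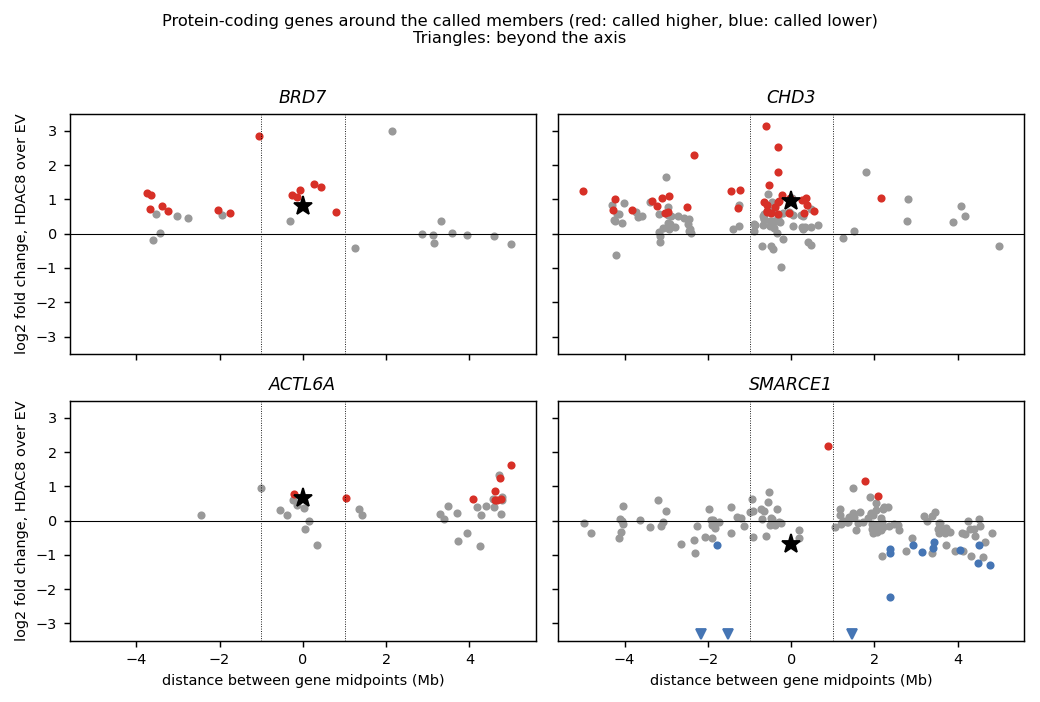
The log2 fold change of HDAC8 over EV (vertical axis) of protein-coding genes (mean normalized count from 50 up) within 5 Mb of BRD7, CHD3, ACTL6A and SMARCE1 (stars), by distance between gene midpoints in Mb (horizontal axis). Genes were chosen by the gap between gene ends. Dotted lines mark 1 Mb between midpoints, red and blue are genes called higher and lower, and triangles are values beyond the axis. Within a gap of 1 Mb all 7 genes around BRD7 and 56 of 63 around CHD3 lie above 0, against 12 of 20 around SMARCE1.

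For scale, 11077 protein-coding genes had at least 5 such neighbours. Their neighbour medians had quartiles of -0.19 and 0.23, 2.58% were at or above that of CHD3, 0.117% at or above that of BRD7 and 13.1% at or above that of ACTL6A. Over the 30 subunits with at least 5 neighbours, the subunit's own change and the neighbour median had the same sign in 21 (70%), against 67.8% over all 11077 genes. As a description, Pearson's r was 0.66 and Spearman's rho 0.52 over the 30 subunits, and 0.30 and 0.44 over all genes. The points share libraries and, where genes are close, neighbours. PBRM1 (neighbour median -0.45), BPTF (-0.51) and SMARCD1 (-0.30) lay among genes with negative values, and SMARCA1 (own value -0.02) among genes with a median of 0.50. How much of the rise of BRD7 and CHD3 goes with their stretch of chromosome was not tested.

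**Figure D5:**
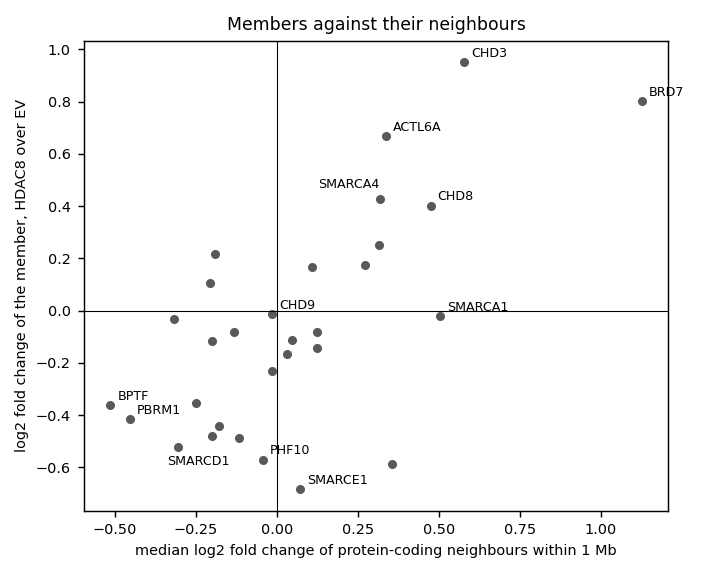
The log2 fold change of each of 30 remodelling genes (vertical axis) against the median log2 fold change of its protein-coding neighbours within 1 Mb (horizontal axis). BRD7 and CHD3 lie at the upper right, at neighbour medians of 1.13 and 0.58, and SMARCE1 lies lowest, at a neighbour median of 0.07.

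RefSeq promoter windows (GRCh38.p14) of 250 bases before the transcription start were found for 34 of the 42 genes. The start is that of RefSeq. For CHD3 and other genes, among them SMARCE1, CHD2, CHD4 and CHD8, it lies downstream of the start of the gene in GENCODE. Their windows thus fall inside the gene as placed by GENCODE, and the counts below include them. The windows of BRD7 and CHD3 are shown as those of the called genes with the largest changes, and that of CHD9 as the subunit gene on the chromosome of BRD7 that passed the test for a change under 0.58. They are read 5′ to 3′ on the strand of the gene, at chr16:50368989-50369238 (minus), chr17:7888539-7888788 (plus) and chr16:53054741-53054990 (plus). Capitals mark the E-box CACGTG, the site that MITF can bind.
BRD7: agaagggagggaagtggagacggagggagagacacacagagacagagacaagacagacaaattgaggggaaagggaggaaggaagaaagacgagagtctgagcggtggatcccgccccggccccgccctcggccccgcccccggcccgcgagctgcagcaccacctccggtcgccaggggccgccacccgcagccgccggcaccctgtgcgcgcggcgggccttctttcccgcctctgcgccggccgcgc
CHD3: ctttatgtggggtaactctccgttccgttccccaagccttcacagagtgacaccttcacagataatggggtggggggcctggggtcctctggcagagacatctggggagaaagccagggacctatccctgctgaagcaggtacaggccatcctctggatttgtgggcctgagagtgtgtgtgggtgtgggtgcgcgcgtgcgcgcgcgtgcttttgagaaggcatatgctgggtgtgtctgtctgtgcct
CHD9: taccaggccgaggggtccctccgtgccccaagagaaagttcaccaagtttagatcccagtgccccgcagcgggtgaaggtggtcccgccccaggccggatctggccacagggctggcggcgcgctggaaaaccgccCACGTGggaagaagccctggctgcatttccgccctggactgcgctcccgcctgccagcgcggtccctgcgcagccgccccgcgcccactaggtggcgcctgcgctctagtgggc
The E-box CACGTG stood in 2 of the 34 windows, those of CHD9 and PBRM1 (first base at -114 and -130 from the start), and in 6.34% of 35116 RefSeq promoters. The AP-1 letters TGANTCA, read by Jun and its partners, stood in 2, SMARCB1 (-163) and INO80B-WBP1 (-189), against 6.57%. The TEAD letters GGAATG stood in none, against 11.9%. Both strands were searched, the motifs do not overlap one another, and none of the called genes with a window (CHD3, BRD7 and SMARCE1) held any of the 3. The windows had a median GC content of 64.6%, against 58% over all promoters.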

How the data were processed

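Bulk RNA-seq of WM164 cells was used, 3 EV and 3 HDAC8 libraries, grouped by the labels. The authors used Trimmomatic for trimming of the read pairs, STAR for alignment to transcripts and RSEM for quantification, per the labels and the study's methods. The deposited values are RSEM expected counts per gene, not scaled between libraries, which share a read between the genes it could come from. Of the 42 genes, 17 had fractional values. Genome build, annotation, use of strand and removal of duplicates are not given in the sources used here, so overlapping genes and those with pseudogenes are uncertain. The sources differ on the RNA extraction kit.

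Expected counts were rounded to whole numbers. Depth was 34741083 to 42041462 counts per library. The 3508 genes without a symbol (0.0804% to 0.102% of counts) were kept under their identifier. The groups were compared with DESeq2 1.42.0 in R 4.3.3 (Wald test, two-sided) on the 26162 genes that reached 10 counts in total, with size factors of 0.918 to 1.17, no covariates and Benjamini-Hochberg adjustment over all genes. DESeq2 gave no adjusted p for 5141 genes, which were left out of counts of calls. The thresholds (adjusted p under 0.05, log2 fold change of 0.58) follow the study's methods. The legend to the study's own gene counts instead names a p under 0.05 that was not adjusted, with the same fold change. Intervals at the 95% level come from the DESeq2 standard error, and the limit of 3 counts for a gene at 0 covers counting error only, since PCR copies could not be told from separate molecules. Paralogue ratios were compared by exact two-sided permutation of the 6 libraries. Positions, canonical transcript lengths and neighbours came from GENCODE release 44 (GRCh38), which holds all 42 genes, and promoters from the RefSeq table (GRCh38.p14).

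The members and lists were chosen with earlier results of these data known. Values per library are given for the called genes, the 5 largest changes and the genes of 7 paralogue pairs, and other genes singled out were chosen after their values were seen. Alternatives were edgeR 4.0.16 (quasi-likelihood) and limma-voom (limma 3.58.1) with TMM scaling, total-count or upper-quartile size factors, no filter or a minimum of 10 counts per library, a block for the replicate number, no mitochondrial genes, other call rules and each library left out in turn. The fits were tested on simulated data. Libraries within a group were further apart than counting noise (chi-square per degree of freedom of 26.0 to 153.4), so none was deposited more than once. SK-MEL-28, also described by the study, was not analysed here.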

Additional observations from a re-analysis of the deposited data

How the results depend on the processing

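Under the same call rule CHD3 and BRD7 were called in each of the 14 alternative fits, ACTL6A and SMARCE1 in all but one leave-one-out fit each (without EV replicate 1, 0.58, and without EV replicate 3, -0.54). edgeR and limma-voom made the same 4 calls. With each library left out in turn, members called higher ranged from 2 to 5 and lower from 0 to 3, related subunits called lower from 1 to 3, and members within the fold limit from 5 to 20. A test against the fold minimum itself called 0 higher and 0 lower. Without a fold minimum 3 were lower (SMARCE1, SMARCD1 and CHD2). Total-count size factors gave a median of -0.037 in place of -0.083, CHD4 at 0.017 and SMARCA1 at 0.011, while the median of all 14451 genes with a mean of at least 50 moved from -0.001 to 0.040 with it. The replicate block left 7 members within the fold limit against 14 and made the same calls (CHD3 at 0.94). Same-numbered libraries had deviations from their group means that correlated at -0.03, -0.07 and 0.04 over 14451 genes, so the numbers were not taken as pairs. Leaving out a library also changed the sign of values near 0, with CHD4 from -0.16 to 0.037, SMARCA1 from -0.14 to 0.090 and SMARCD3 from -0.014 to 0.43, and the differences in log2 ratio of SMARCA2 to SMARCA4 from -0.15 to 0.19, SMARCC2 to SMARCC1 from -0.11 to 0.080 and SMARCD2 to SMARCD1 from -0.034 to 0.19. The cause of these shifts was not tested. Of 238 alternative values of 17 named members, 225 kept their direction and call.

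With 3 libraries a group the exact test of a ratio cannot pass 0.05. HDAC8 replicate 1 differs most from the other HDAC8 libraries and is the highest library for CHD3, SMARCA4 and SMARCD3. Counts of DPF1, DPF3, CHD5, INO80C and INO80B-WBP1 are low, and a change of the size seen in BRD7 was not detectable for them at this depth. The HDAC8 transcript was not called higher in the libraries labelled HDAC8 in any fit, with small positive values of 0.08 to 0.24.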
